A study of Caenorhabditis elegans with 7 samples.

Results

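The digestive proteases and the vacuolar ATPase of Caenorhabditis elegans were followed here as every gene whose symbol begins with cpr, cpl, cpz, asp or vha and ends in a number. The deposited table held 49 such genes among 46778, of which 10 were cysteine proteases, 19 were aspartyl proteases and 20 were subunits of the proton pump. FPKM is here mapped fragments scaled by gene length and by a divisor for each library. Of these 49 genes, 41 reached 0.5 FPKM in 3 or more of the 7 libraries and were tested. They were 9 cysteine proteases, 12 aspartyl proteases and all 20 pump subunits.

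RNA was sequenced from whole L4 animals (the last larval stage) of N2, the standard laboratory wild type, grown on OP50 bacteria. The 4 WT Late libraries came from animals propagated through late-born progeny alone for at least 50 generations, and the 3 WT libraries came from animals under no selection. Both groups were the same strain, and the labels call the libraries biological replicates. The sources used here do not say that the 4 WT Late libraries came from separately selected lines, so p-values measure only how these libraries vary, and how selected lines vary is not known. The comparison asks how steady-state transcript levels differ between the selected and the unselected population.

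In the worm intestine, food and cargo taken up by the cells are broken down by acid proteases, most of which act in the gut lumen or in lysosome-related compartments. Cathepsin B, L and Z relatives use a cysteine in the active site, and cathepsin D relatives use a pair of aspartates. Both kinds need an acid compartment, which is made by the vacuolar ATPase, a rotary pump whose cytosolic V1 sector splits ATP and whose membrane V0 sector carries protons. The pump also works in the excretory canal, epidermis and neurons, where different a subunits take it to different membranes.

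Reads on genes lay between 17553893 and 20961698 in WT Late libraries and between 19484976 and 20423033 in WT libraries, so depth differed little. WT Late replicate 3 stood apart from the other libraries. Ribosomal protein genes took 13.2% of its reads, against 25.6% to 35.6% in the other WT Late libraries and 24.1% to 29.8% in WT libraries, and 18490 genes had a read there. In WT Late replicate 2, only 11069 genes had a read, so that a gene at 0 reads there may still be expressed. Levels below are rescaled FPKM, that is FPKM after division by the median-of-ratios factor of its library (0.848 to 1.38), and results are given with and without WT Late replicate 3.

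As groups, the proteases had higher median levels than in WT in 3 of 4 WT Late libraries, with smaller differences for the pump subunits. The median log2 fold change of WT Late over WT was 0.76 over the 9 cysteine proteases, 0.48 over the 12 aspartyl proteases and 0.04 over the 20 pump subunits, against -0.13 over all 13194 genes tested. All 9 cysteine proteases had a positive log2 fold change, as did 7 of 12 aspartyl proteases and 11 of 20 pump subunits. Set against the mean of the WT libraries, the cysteine proteases had a median log2 deviation of 1.46, 1.03, -0.09 and 1.18 in WT Late replicates 1 to 4. The same value was 1.01, 0.65, -1.23 and 1.19 for the aspartyl proteases and 0.31, 0.26, -0.80 and 0.69 for the pump. WT Late replicate 3 thus lay below the other WT Late libraries in every class. The same median over all genes was 0.07 there and -0.26 to -0.09 in the other WT Late libraries.

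**Figure D1:**
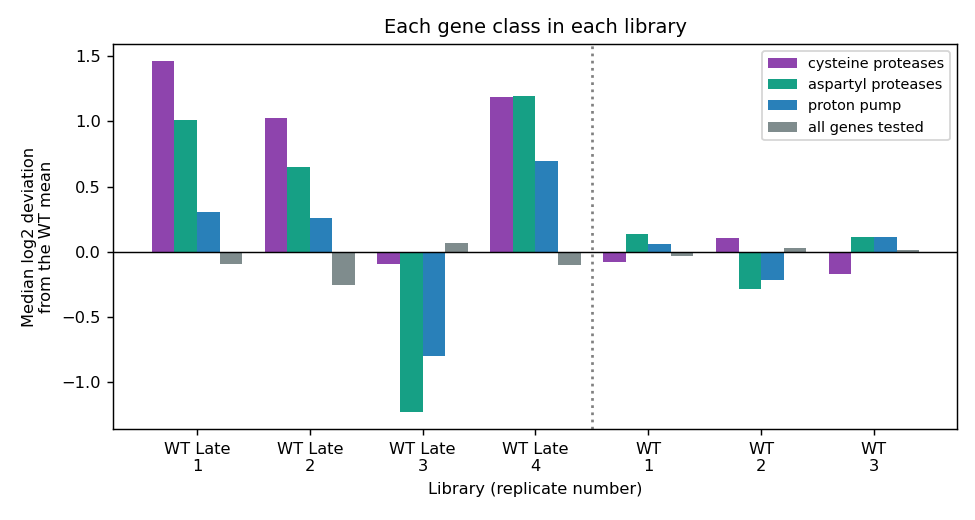
Bars give, for each of the 7 libraries, the median log2 deviation from the WT mean over each gene class and over all genes tested. The protease bars stand well above 0 in WT Late replicates 1, 2 and 4 and at or below 0 in replicate 3, where the aspartyl proteases are at -1.23.

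Of the 41 members tested, 29 had their lowest rescaled FPKM of all 7 libraries in WT Late replicate 3, where 20.8% of all genes tested did. This held for 4 of 9 cysteine proteases, 9 of 12 aspartyl proteases and 16 of 20 pump subunits. Reads did not always order the libraries in that way. vha-16 and vha-17 had 10793 and 3465 reads in WT Late replicate 3, their highest of all libraries. asp-1 and vha-6 had 60641 and 7239 there, their lowest. The summed rescaled FPKM over all genes tested was also lowest in WT Late replicate 3, at 391700, against 883519 to 2.00441e+06 in the other libraries. A low sum there was thus not limited to these classes. Without that library, the class medians were 1.28 for cysteine proteases, 0.98 for aspartyl proteases and 0.48 for the pump, against -0.17 over all genes. The summed level of intestinal marker genes was also low in WT Late replicate 3, at 578. It ranged from 578 to 3285 over WT Late libraries and from 1395 to 2614 over WT libraries. Most of that sum was act-5, with 375 in WT Late replicate 3 and 2741 in WT Late replicate 4. The part of intestine content in these results was not tested, and in whole animals fewer cells of a type and less RNA per cell cannot be told apart.

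Shares of reads do not depend on the rescaling, but each share depends on what the other genes take. Ribosomal protein genes took 13.2% of reads in WT Late replicate 3, against 24.1% to 35.6% in the other libraries. That left more reads for other genes there. Cysteine protease genes took 0.735%, 0.622%, 0.512% and 0.509% of the reads on genes in WT Late replicates 1 to 4, against 0.278%, 0.402% and 0.316% in WT replicates 1 to 3. Every WT Late library, replicate 3 included, was thus above every WT library by this measure, although the summed rescaled FPKM of the cysteine proteases in replicate 3 was 1718, under the 2344 to 2855 of the WT libraries. The aspartyl proteases took 1.11% to 2.19% of reads in WT Late libraries and 1.38% to 1.76% in WT libraries. The pump took 0.719%, 0.643%, 0.706% and 0.584% in WT Late replicates 1 to 4, against 0.594%, 0.596% and 0.715% in WT replicates 1 to 3. For the aspartyl proteases and the pump the groups overlapped. By this measure the pump in WT Late replicate 3 lay inside the WT range. Its summed rescaled FPKM there was 2404, under the 4020 to 5350 of the WT libraries.

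Tested gene by gene with limma and Benjamini-Hochberg adjustment over all genes, 2 members were called higher in WT Late at an adjusted p under 0.05, the cathepsin B relative cpr-4 and the aspartyl protease asp-13. Over all genes 0.667% were called higher. No member was called lower, where 0.182% of all genes were, and 0 of 41 were lower at an unadjusted p under 0.05, a level that 4.81% of all genes reached. No alternative fit, including voom on the recovered reads, called a member lower. At an unadjusted p under 0.05, 4 cysteine proteases, 2 aspartyl proteases and 0 pump subunits were higher, against 4.08% of all genes. Groups did not overlap, with WT Late higher, for 3 cysteine proteases and 2 aspartyl proteases, against 4.67% of all genes. No member was lower without overlap, against 5.09% of all genes.

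The count of 2 rested on single libraries. Leaving out WT Late replicate 3 gave 9 calls, leaving out WT replicate 1 gave 0, and leaving out WT Late replicate 1, 2 or 4 or WT replicate 3 gave 1 each. Without WT Late replicate 3, the calls were 5 of 9 cysteine proteases, 4 of 12 aspartyl proteases and 0 of 20 pump subunits, all higher, against 2.86% of all genes called higher and 2.23% called lower in that fit. Groups then did not overlap, with WT Late higher, for 8 cysteine proteases, 7 aspartyl proteases and 9 pump subunits, against 14.2% of all genes. They did not overlap with WT Late lower for asp-17, vha-7 and vha-18, all of low level, against 18.3% of all genes.

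**Figure D2:**
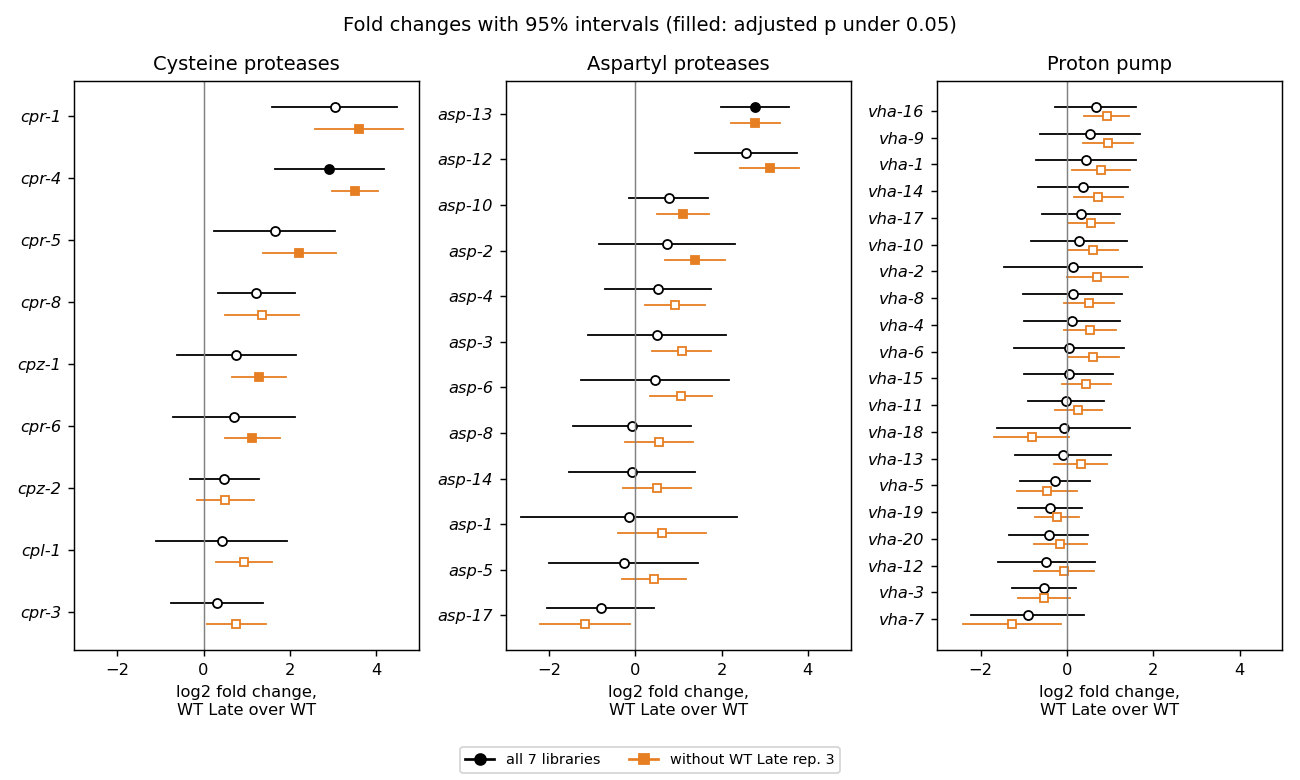
Points give the log2 fold change of WT Late over WT for each tested member, with its 95% interval, from all 7 libraries (black circles) and without WT Late replicate 3 (orange squares), and filled points passed an adjusted p of 0.05. With all libraries only cpr-4 and asp-13 are filled, and without replicate 3 another 7 proteases and no pump subunit are.

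Among the cysteine proteases, the cathepsin B relatives cpr-4 and cpr-1 differed most between groups. cpr-4 (WBGene00000784, chromosome V, bases 6614674 to 6615845, plus strand, 2 exons) encodes a cathepsin B-like enzyme that can also be secreted. Its level was 626, 600, 127 and 755 in WT Late replicates 1 to 4, against 65.8, 56.3 and 50.8 in WT replicates 1 to 3. Even the low WT Late replicate 3 was above every WT library. The mean was 527 ± 275 in WT Late (SD, n = 4) and 57.7 ± 7.60 in WT (SD, n = 3). The log2 fold change was 2.92 (SE 0.58, 95% interval 1.65 to 4.18), with a limma adjusted p of 0.0405 and an exact permutation p of 0.0571 over the 35 splits, of which the smallest possible is 0.0286. The call was lost on leaving out any library other than WT Late replicate 3, with limma adjusted p of 0.164, 0.153 and 0.0995 without WT Late replicates 1, 2 and 4 and 0.205, 0.153 and 0.262 without WT replicates 1, 2 and 3. It was also lost with a pseudocount of 0.1, with no filter, with no variance trend and with the length trend removed, and so held in 8 of 18 alternatives. Over all of them its log2 fold change stayed between 2.65 and 3.51 and its limma adjusted p ranged from 1.42e-05 to 0.262.

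cpr-1 (WBGene00000781, chromosome V, bases 11975515 to 11976756, plus strand) is a gut cysteine protease made in the intestine. It stood at 446, 506, 106 and 647 in WT Late replicates 1 to 4, against 36.6, 99.6 and 21.1 in WT replicates. The groups did not overlap, but WT Late replicate 3 and WT replicate 2 lay close to each other. The log2 fold change was 3.04 (SE 0.66), and its limma adjusted p of 0.0656 missed the threshold, with an exact permutation p of 0.0571. It passed in 8 of 18 alternatives, among them the fits without WT Late replicate 3 (3.61, limma adjusted p 0.00158) and without WT replicate 2 (3.64, limma adjusted p 0.0449), and its limma adjusted p over all alternatives ranged from 0.000145 to 0.439.

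cpr-8 (WBGene00021070, chromosome V), another cathepsin B relative, was expressed at a far lower level, with 14.9, 11.2, 8.42 and 10.8 in WT Late replicates 1 to 4, against 3.58, 7.97 and 3.04 in WT replicates. Here WT Late replicate 3 was the lowest of its group by a small step only. The log2 fold change was 1.23 (limma adjusted p 0.334), and the groups did not overlap (exact permutation p = 0.0286, the smallest possible). The next gene to it, cpr-5, starts 448 bases away on the opposite strand and, chosen after its values were seen, had 408, 671, 132 and 1035 in WT Late replicates 1 to 4, against 155, 192 and 92.5 in WT replicates. WT Late replicate 3 fell inside the WT range of rescaled FPKM, so the groups overlapped. In reads cpr-5 had 6902 there, against 3384, 5394 and 2541 in WT replicates 1 to 3. The log2 fold change of cpr-5 was 1.64 (limma adjusted p 0.436) with all libraries and 2.22 (limma adjusted p 0.00974) without WT Late replicate 3. Over all alternatives its limma adjusted p ranged from 0.00676 to 0.974.

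The 3 most abundant cysteine proteases had smaller differences. cpl-1, the cathepsin L that processes yolk and is needed in the embryo, had 1880, 1496, 439 and 2112 in WT Late replicates 1 to 4, against 892, 1020 and 932 in WT replicates. cpr-6, a cathepsin B relative, had 2038, 1397, 501 and 1649 in WT Late replicates and 789, 795 and 710 in WT replicates. cpz-1, the cathepsin Z relative linked to moulting, had 1312, 972, 276 and 1210 in WT Late replicates and 452, 591 and 406 in WT replicates. In rescaled FPKM of all 3 genes, WT Late replicates 1, 2 and 4 lay above every WT library and WT Late replicate 3 below every one. In reads, cpr-6 had 27539 in WT Late replicate 3, against 18042, 23395 and 20443 in WT replicates 1 to 3. Reads of cpl-1 there (22726) lay inside the WT range of 19216 to 28282. Those of cpz-1 (12690) lay inside the WT range of 8651 to 14566. The log2 fold changes of cpl-1, cpr-6 and cpz-1 were 0.43, 0.70 and 0.76, with limma adjusted p of 0.891, 0.804 and 0.780. Without WT Late replicate 3 the log2 fold change of cpz-1 was 1.28 (limma adjusted p 0.0303), that of cpr-6 was 1.13 at the edge of the threshold (limma adjusted p 0.049998), and that of cpl-1 was 0.93 (limma adjusted p 0.0803). For each of the 3 genes this was the lowest limma adjusted p of any alternative, and the highest was 0.99993.

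Of the remaining cysteine proteases, cpz-2 had a log2 fold change of 0.49 and cpr-3 of 0.30, neither called. cpr-2 had 0 reads in all 7 libraries. Ordered by mean level over all libraries, the cathepsin L cpl-1 came before cpr-6 and cpz-1, whose ranges overlapped with it and with each other in WT Late.

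**Figure D3:**
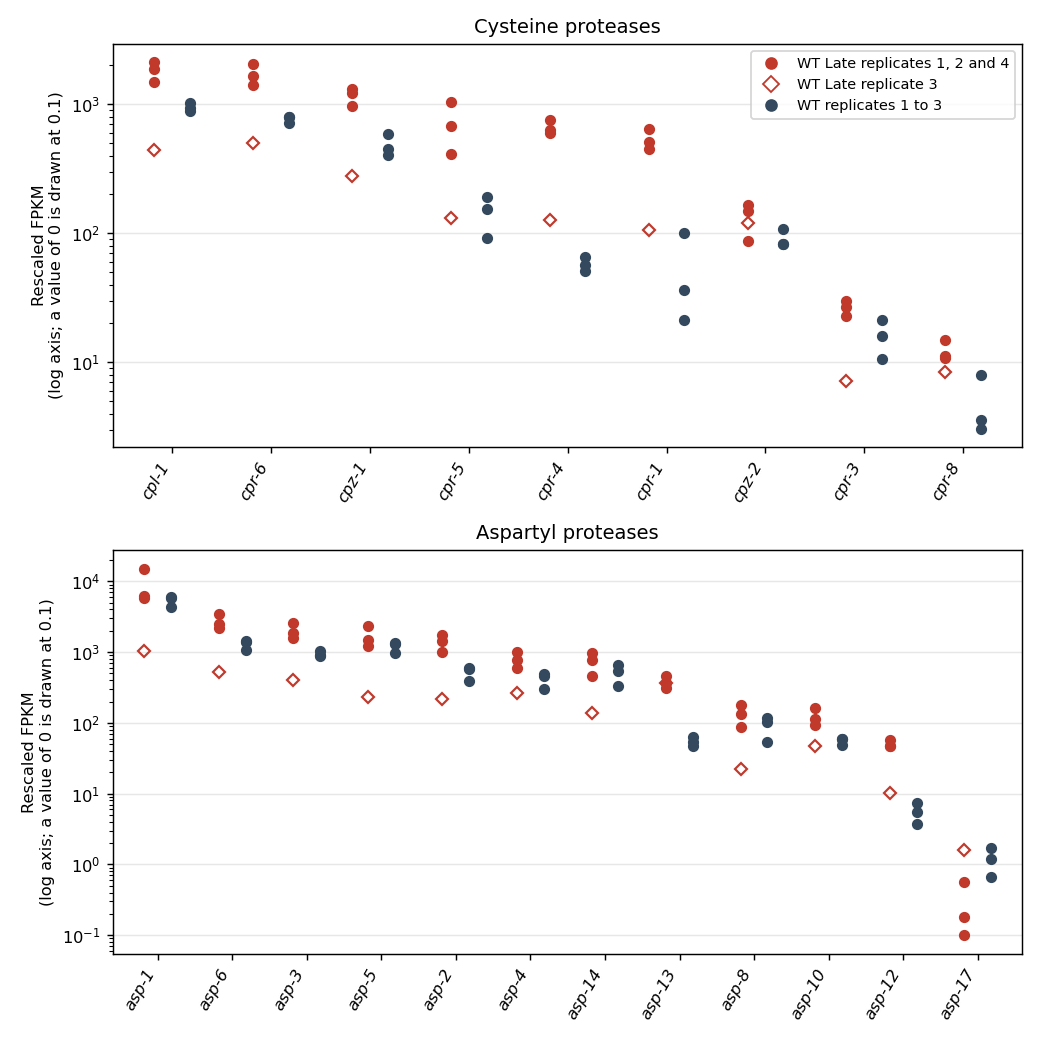
Each point is the rescaled FPKM of a gene in 1 library on a log axis, for the 9 cysteine and 12 aspartyl proteases tested, with WT Late (red) left of WT (blue), WT Late replicate 3 as an open diamond and a value of 0 drawn at 0.1. The diamond lies below the other WT Late libraries for most genes but within them for asp-13.

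The mixture of cysteine protease transcripts was described by a gene's share of the summed FPKM of its class within a library, a measure that needs no scaling between libraries and was added after the data had been seen. Groups overlapped for 6 of 9 cysteine protease shares, and the other 3 are given here. cpr-4 made up 9.05%, 10.3%, 7.42% and 10.03% of cysteine protease FPKM in WT Late replicates 1 to 4, against 2.64%, 1.97% and 2.17% in WT replicates. cpr-1 made up 6.19% to 8.68% in WT Late libraries and 0.899% to 3.49% in WT libraries. cpl-1 made up 25.6% to 28.0% in WT Late libraries, less than the 35.7% to 39.7% in WT libraries, while its own level was higher in 3 of 4 WT Late libraries. Shares of a class add up to a fixed total, so a larger share for cpr-4 and cpr-1 leaves less for the others. The ratio of cpr-4 to cpr-6 was 0.254 to 0.458 in WT Late libraries and 0.0709 to 0.0834 in WT libraries, without overlap, while that of cpr-5 to cpr-6 was 0.200 to 0.628 in WT Late libraries and 0.130 to 0.242 in WT libraries, with overlap.

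**Figure D4:**
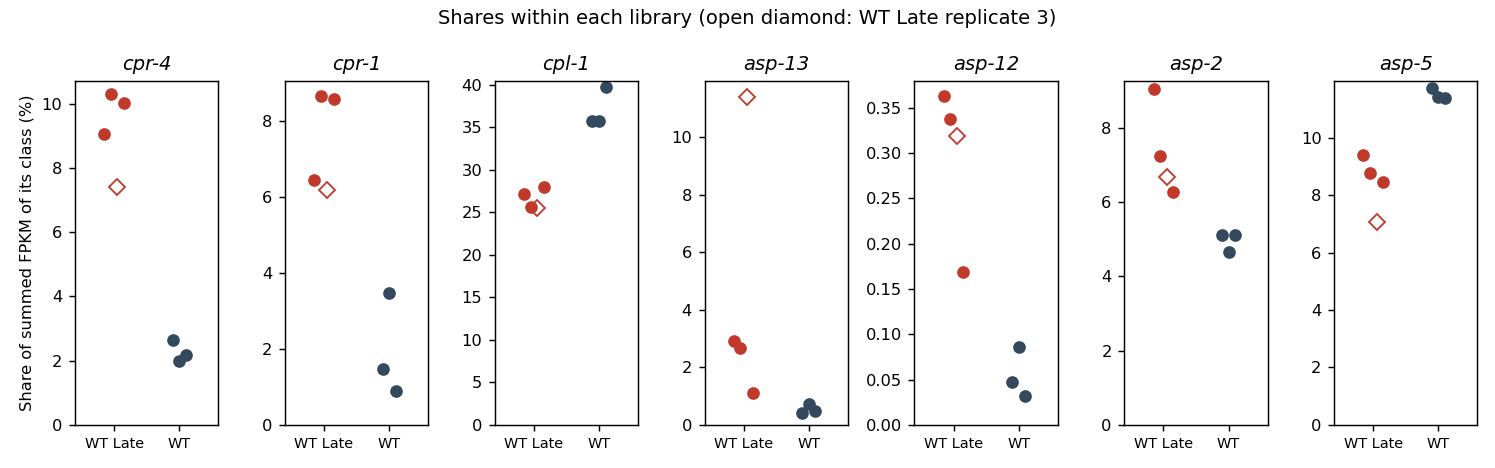
Points give the share of a gene in the summed FPKM of its protease class (percent, axis from 0, scale differing by gene) in each library, with WT Late left, WT right and WT Late replicate 3 as an open diamond. These are the 7 proteases whose shares do not overlap: cpr-4, cpr-1, asp-13, asp-12 and asp-2 have larger shares in every WT Late library and cpl-1 and asp-5 smaller ones.

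Among the aspartyl proteases, asp-13 and asp-12 differed most between groups. asp-13 (WBGene00017881, chromosome V, bases 8641491 to 8643225, minus strand, 7 exons) had 459, 368, 370 and 309 in WT Late replicates 1 to 4, against 46.8, 62.1 and 53.6 in WT replicates. Unlike most members, it was not low in WT Late replicate 3, and the groups were far apart. The mean was 376 ± 61.9 in WT Late (SD, n = 4) and 54.2 ± 7.67 in WT (SD, n = 3). The log2 fold change was 2.78 (SE 0.36, 95% interval 1.99 to 3.57), with a limma adjusted p of 0.00368 and an exact permutation p of 0.0286, the smallest possible. It was called in 17 of 18 alternatives and missed the threshold without WT replicate 1 (2.68, limma adjusted p 0.0589), and its limma adjusted p over all alternatives ranged from 1.66e-05 to 0.0589.

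asp-12 (WBGene00017678, chromosome V, bases 8269254 to 8272058, plus strand) had 57.2, 46.7, 10.3 and 46.5 in WT Late replicates 1 to 4, against 5.50, 7.29 and 3.67 in WT replicates. Each WT Late library was above each WT library, with replicate 3 the nearest to them. The log2 fold change was 2.56 (SE 0.54) with a limma adjusted p of 0.0559, just short of the threshold, and an exact permutation p of 0.0571. Without WT Late replicate 3 it was 3.11 (limma adjusted p 0.000365), and over all alternatives its limma adjusted p ranged from 3.42e-05 to 0.339. asp-12 sits between asp-6 and asp-5, 316 bases from each, in a cluster that ends with the pseudogene asp-11 (chromosome V, bases 8267511 to 8275757). The log2 fold change of its neighbours was 0.47 for asp-6 and -0.27 for asp-5, neither called, and the ratio of asp-12 to asp-5 was 0.01999 to 0.0450 in WT Late libraries and 0.00281 to 0.00755 in WT libraries.

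The most abundant aspartyl proteases were not called. asp-1, an aspartyl protease of the intestine and the most abundant member of all, had 5875, 6162, 1022 and 15106 in WT Late replicates 1 to 4, against 5865, 4334 and 5971 in WT replicates. Within WT Late it thus spanned the widest range in rescaled FPKM of all members, with replicate 4 far above and replicate 3 far below the WT libraries. asp-6 had 2506, 2191, 519 and 3422 in WT Late replicates and 1439, 1061 and 1374 in WT replicates. asp-3, a cathepsin D relative with a part in the necrotic death of neurons, had 1862, 1602, 406 and 2577 in WT Late replicates and 1021, 888 and 908 in WT replicates. For asp-6 and asp-3, WT Late replicates 1, 2 and 4 lay above every WT library and replicate 3 below every one. The log2 fold changes of asp-1, asp-6 and asp-3 were -0.13, 0.47 and 0.50, with limma adjusted p of 0.982, 0.896 and 0.878. Without WT Late replicate 3 that of asp-1 turned to 0.62, and the other 2 were 1.05 and 1.07, with limma adjusted p of 0.411, 0.0781 and 0.0661, again the lowest of any alternative, the highest being 0.99993.

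The other aspartyl proteases tested had log2 fold changes between -0.80 for asp-17 and 0.77 for asp-10, none called. asp-4, a cathepsin D relative that acts with asp-3 in neuronal necrosis, was at 0.53. Without WT Late replicate 3, asp-10 (1.11, limma adjusted p 0.0435) and asp-2 (1.39, limma adjusted p 0.0325) were called as well. Both overlap another gene on the opposite strand in the reference annotation, and asp-2 also overlaps a pseudogene on its own strand. The counting is not stated to use strand, so part of their reads may belong to those genes. The remaining 7 aspartyl protease genes had too little signal to test: asp-15, asp-18 and asp-19 had 0 reads in every library, and asp-7, asp-9, asp-11 and asp-16 had at most 7 reads in any library. asp-15, asp-16 and asp-17 lie next to asp-1 on chromosome V, so the most abundant aspartyl protease gene borders genes with few or no reads.

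Within the aspartyl class, asp-13 made up 2.91%, 2.66%, 11.4% and 1.12% of summed FPKM in WT Late replicates 1 to 4, against 0.407%, 0.734% and 0.467% in WT replicates. Its large share in WT Late replicate 3 came with its usual level there and low levels of the other aspartyl proteases. asp-12 made up 0.169% to 0.363% in WT Late libraries and 0.0320% to 0.0861% in WT libraries. asp-2 made up 6.27% to 9.05% in WT Late libraries and 4.66% to 5.11% in WT libraries. asp-5 made up 7.07% to 9.39% in WT Late libraries and 11.4% to 11.7% in WT libraries. For the other 8 aspartyl proteases the groups overlapped. The share of asp-1 lay between 31.5% and 55.0% in WT Late libraries and between 50.9% and 52.0% in WT libraries, a spread in WT Late that held the WT values.

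No proton pump subunit was called. limma called 0 of 20 in either direction, 0 had an unadjusted p under 0.05, and 0 were called under any alternative run, voom and library weights included. The log2 fold changes ran from -0.91 for vha-7 to 0.67 for vha-16, and the lowest limma adjusted p was 0.697. The 95% intervals of the subunits together spanned -2.22 to 1.75, sizes that these libraries did not distinguish from 0. The 9 V1 subunits had a median log2 fold change of 0.04, the 9 V0 subunits 0.13 and the accessory subunits vha-19 and vha-20 -0.40.

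The c subunits form the ring that carries protons through the membrane. vha-2, the most abundant pump transcript, had 1606, 1537, 381 and 2430 in WT Late replicates 1 to 4, against 1357, 920 and 1100 in WT replicates. vha-1, the gene 106 bases upstream on the same strand, had 683, 497, 237 and 721 in WT Late replicates and 498, 280 and 342 in WT replicates. Both were below every WT library in WT Late replicate 3 in rescaled FPKM, and their log2 fold changes were 0.15 and 0.44. In reads vha-2 had 15776 there, against 23365, 20399 and 23860 in WT replicates 1 to 3. Reads of vha-1 there were 8379, against 7334, 5317 and 6346 in WT replicates. vha-2 overlaps R10E11.6 on its own strand in the reference annotation, so part of its reads may belong to that gene. vha-4, the c double-prime subunit, had 379, 280, 113 and 409 in WT Late replicates and 295, 193 and 250 in WT replicates, a log2 fold change of 0.13.

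vha-3, also a c subunit, had 56.8, 69.9, 74.7 and 98.8 in WT Late replicates 1 to 4, against 112, 91.0 and 118 in WT replicates. WT Late replicates 1, 2 and 3 were below every WT library and replicate 4 lay inside the WT range. Its log2 fold change of -0.53 (95% interval -1.27 to 0.22) was not called (limma adjusted p 0.708). In the WT Late libraries other than replicate 3, the ratio of vha-3 to vha-2 was 0.0354, 0.0455 and 0.0407, against 0.0824 to 0.107 in WT libraries, but it was 0.196 in WT Late replicate 3, so the groups overlapped. vha-11, the C subunit, lies 21 bases from vha-3 on the same strand and had a log2 fold change of -0.02.

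The a subunits take the pump to particular membranes. vha-6, the a subunit of the intestinal lumen side, had 311, 260, 61.5 and 344 in WT Late replicates 1 to 4, against 215, 149 and 239 in WT replicates. WT Late replicates 1, 2 and 4 were above every WT library and replicate 3 below, with a log2 fold change of 0.05. vha-5, the a subunit of the excretory canal and epidermis, had 15.1, 8.92, 21.2 and 14.02 in WT Late replicates and 13.6, 17.4 and 22.04 in WT replicates, with overlap between the groups (log2 fold change -0.28). vha-7, the a subunit of the epidermis and uterus, had 0.775, 0, 2.57 and 1.31 in WT Late replicates and 1.79, 2.56 and 1.93 in WT replicates (log2 fold change -0.91, limma adjusted p 0.713). It had 0 reads in WT Late replicate 2 and 437 in replicate 3, so its lower values in WT Late did not include replicate 3.

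In V1, the G subunit vha-10 had 633, 617, 261 and 656 in WT Late replicates 1 to 4. It had 485, 349 and 436 in WT replicates, again with replicate 3 below and the others above every WT library. Its log2 fold change was 0.28 (limma adjusted p 0.906). In reads vha-10 had 7666 in WT Late replicate 3, against 5926, 5482 and 6700 in WT replicates 1 to 3. The catalytic A subunit vha-13 was at -0.08 and the nucleotide-binding B subunit vha-12 at -0.48, neither called. The low-level H subunit vha-18, singled out after its values were seen, had 1.203, 1.35, 14.7 and 1.67 in WT Late replicates and 2.50, 3.65 and 2.54 in WT replicates. It was high in WT Late replicate 3 and below every WT library in the other WT Late libraries, and it overlaps another gene in the reference annotation.

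**Figure D5:**
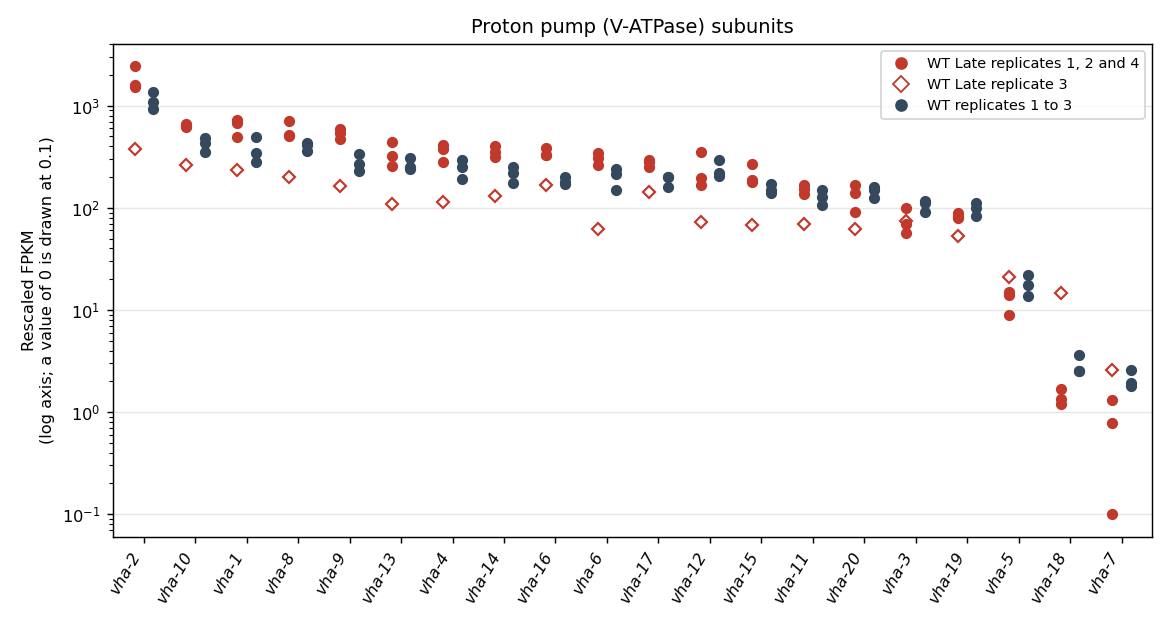
Each point is the rescaled FPKM of a pump subunit gene in 1 library on a log axis, with WT Late (red) left of WT (blue), WT Late replicate 3 as an open diamond and a value of 0 drawn at 0.1. The diamond is the lowest point for 16 of 20 subunits and the highest for vha-18 and vha-7.

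Positions set the classes apart. Of the 29 protease genes, 23 were on chromosome V, while 2 of 20 pump genes were. Of the 21 tested proteases, 16 were there, among them cpr-1, cpr-4, cpr-5, asp-12 and asp-13. asp-1, asp-5 and cpr-3 were there too, with log2 fold changes of -0.13, -0.27 and 0.30. A link of position with the changes was not tested. Of the 41 tested members, 11 overlap another gene in the reference annotation, but cpr-4, cpr-1, cpr-8, asp-13 and asp-12 do not.

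Other genes of the same pathway gave few calls. The pump genes that carry no vha symbol, unc-32 (the neuronal a subunit) and spe-5 (a B subunit of sperm), both had a log2 fold change of -0.05, and 0 of 2 were called. The cystatins, inhibitors of cysteine proteases, had log2 fold changes of 0.52 for cpi-1 and 0.85 for cpi-2, with 0 of 2 called, and cpi-2 was called without WT Late replicate 3 (1.23, limma adjusted p 0.0238). Of 28 further lysosomal hydrolases 27 were tested, with a median log2 fold change of -0.15, 12 positive and 15 negative. At an unadjusted p under 0.05, 6 of them were higher and 5 lower in WT Late (4.08% and 4.81% of all genes). With all libraries asm-3, an acid sphingomyelinase, was called, lower in WT Late with 0, 0, 0.0722 and 0.303 in WT Late replicates 1 to 4, against 4.92, 2.79 and 4.96 in WT replicates (log2 fold change -2.98 after adding 0.5, limma adjusted p 0.00849). Leaving out WT Late replicate 3 gave a median of -0.13 and 5 calls, the lipase lipl-4 and pcp-5 higher and asm-3, the lipase lipl-1 and pcp-2 lower. Of the lysosomal membrane proteins 9 were tested and 0 called, with a median of -0.19, or 0.08 without WT Late replicate 3, where again 0 were called.

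Regulators of intestinal and lysosomal genes were measured too, and 1 of 8 was called. mxl-3, a repressor of lysosomal lipase genes in fed worms, had 68.8, 64.3, 29.9 and 62.7 in WT Late replicates 1 to 4, against 7.73, 10.8 and 6.88 in WT replicates. Every WT Late library was above every WT library, with a log2 fold change of 2.62 (SE 0.38, limma adjusted p 0.00608). hlh-30, the worm relative of the mammalian lysosomal regulator TFEB, had a log2 fold change of -0.68, and elt-2, the main GATA factor of the intestine, was at -0.00072, with 9.64, 17.5, 8.26 and 10.5 in WT Late replicates and 8.95, 9.78 and 15.2 in WT replicates. nhr-31, a nuclear receptor that controls pump genes in the excretory cell, was at -0.97. The median over the 8 regulators was -0.14.

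Markers of the tissues in which these genes act were measured in both groups, but end-3, ceh-22, pgp-12 and spe-9 fell below the filter and were not tested. Of these, the excretory cell marker pgp-12 was at 0 to 0.202 in WT Late libraries and 0.325 to 1.38 in WT libraries. The median log2 fold change was 0.14 over 6 intestinal markers with 0 called, -0.46 over 5 excretory cell markers with 0 called and 0.40 over 7 epidermal markers with 1 called, the cuticle collagen dpy-7 (higher, 2.96). It was -0.03 over 7 neuronal markers, -0.79 over 4 pharyngeal markers, -0.54 over 9 sperm markers and -0.74 over 8 germline markers, with 0 called in each. The summed level of epidermal markers was 349 in WT Late replicate 3, within 349 to 1891 over WT Late libraries and 494 to 1037 over WT libraries, and that of sperm markers was 771 there, within 771 to 4052 over WT Late libraries and 1534 to 3062 over WT libraries. The germline sum (139), the pharyngeal sum (38.3) and the excretory sum (12.7) in WT Late replicate 3 were the highest of the WT Late libraries. The medians without that library were 0.29 for intestine with 1 called, -0.75 for the excretory cell with 0 called, 0.90 for epidermis with 2 called, 0.31 for neurons with 0 called, -0.96 for pharynx with 0 called, -0.17 for sperm with 1 called and -1.03 for germline with 1 called.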

How the data were processed

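Whole L4 N2 animals were profiled by RNAseq in 4 WT Late and 3 WT libraries. The authors deposited FPKM for 46778 genes in a single table, with gene length and coordinates and no columns of their own comparisons; 0 other columns of sample values were present. Sequencing and counting were reported by a service company. Aligner, counter, strand setting and build were not given in the sources used here, but 46603 of the identifiers are listed by WBcel235 (Ensembl release 115), and 11 of 49 members have identical coordinates there. Positions are those of the deposited table, whereas exon numbers and overlaps come from that annotation. Sequences and identity between family members were not used here, so reads shared between close relatives could not be assessed.

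FPKM already carries a scaling by library, whose divisor was not the number of reads on genes. Multiplied by gene length and by that divisor, FPKM gave whole reads for 100% of values within 0.02. Each library was divided by its median-of-ratios factor over 10634 genes, with factors centred to a geometric mean of 1. Genes at 0.5 or more in at least 3 libraries (13194) were fitted with limma 3.58.1 in R 4.3.3 (lmFit, eBayes with a variance trend) on log2 of the value plus 0.5, and called at a Benjamini-Hochberg adjusted p under 0.05. Fold changes are on that scale, which understates changes of low genes. Without WT Late replicate 3, the filter left 12640 genes. An exact permutation test (two-sided, 35 splits) was also run for single genes. The procedure was run on simulated counts with the same dispersion for every gene and no library like WT Late replicate 3. That run does not show how the procedure performs with such a library. Tables and figures were made with Python 3.11.15, pandas 2.3.3, numpy 2.4.6 and matplotlib 3.10.9.

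Values per library are given for called members, the 3 members of highest mean level in each class, up to 5 members per class of largest change without overlap, and the a and c subunits. Others are named with a fold change, and exceptions are stated. The members, gene lists and tests were chosen with earlier results of these data known. The contrast was refitted with quantile-normalized FPKM or FPKM as deposited, with a pseudocount of 0.1 or 1, with a minimum FPKM of 5 or none, without the variance trend, with library weights, by voom on recovered reads, with the replicate number as a block, after removing length trends within libraries (lowess, span 0.3), and without each library. Within-class shares and ratios were added after the data were seen. The markers opt-2 and slc-36.1 were not analysed here.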

Additional observations from a re-analysis of the deposited data

Results flagged for a closer look

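In 5 of 41 members the 4 WT Late libraries held a value far from the other 3 by Dixon's gap criterion at 95%, and each time the library was WT Late replicate 3. The value was 127 rescaled FPKM for cpr-4, 10.3 for asp-12, 261 for vha-10 and 61.5 for vha-6, all low. It was 14.7 for vha-18, which was high. In reads vha-10 was not low there, with 7666, against 8029, 6578 and 4591 in WT Late replicates 1, 2 and 4. WT Late replicate 1 stood apart by its reads on genes, 20961698 (2.09617e+07), above the other 3 WT Late libraries. Of 52 values checked 6 met the criterion. For independent values chance alone gives about 1 in 20, but these checks share the same libraries, so the count cannot be set against that rate.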

How the results depend on the processing

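Class medians moved by less than the SD between WT Late libraries, which is widened by replicate 3, but not always by little. The cysteine median was 1.31 with library weights. The aspartyl median was 0.03 with no filter, which adds 4 genes near 0, 0.94 with library weights and 0.17 with the replicate block. The pump median was -0.10 with quantile normalization, -0.17 with the replicate block and 0.38 with library weights. With each library left out the medians ranged from 0.52 to 1.28 for cysteine proteases, 0.17 to 0.98 for aspartyl proteases and -0.17 to 0.48 for the pump. Members called higher numbered 4 with FPKM as deposited, 4 at a minimum FPKM of 5, 8 with library weights, 1 with a pseudocount of 0.1, 1 with no filter, 1 with no variance trend and 1 with the length trend removed, and 0 to 9 with each library left out. With the replicate block there were 4 (cpr-4, cpr-1, asp-13 and asp-12); same-numbered libraries correlated at 0.24, -0.09 and -0.18 for replicates 1, 2 and 3, not every library correlated best with its own number, and the libraries share only a number. Genes called higher numbered 42 with no filter and 500 with library weights, and 23 to 361 with each library left out, against 88. Genes called lower numbered 43 with quantile normalization, 9 with no filter and 558 with library weights, and 5 to 282 with each library left out, against 24. The median log2 fold change of all genes, -0.13, was -0.0083 with quantile normalization, -0.012 at a minimum FPKM of 5 and -0.027 with the length trend removed, shifts of over 0.1. Changes near 0 turned sign. asp-1 was at 0.44 with library weights and 0.066 with voom, and at -0.68 to 0.62 with each library left out. vha-2 was at -0.18 with the replicate block and at -0.18 to 0.71 with each library left out. vha-4 was at -0.063 with quantile normalization and -0.083 with the replicate block, and at -0.084 to 0.53 with each library left out. vha-6 was at -0.19 with quantile normalization and -0.21 with the replicate block, and at -0.21 to 0.62 with each library left out. vha-5 was at 0.16 with the length trend removed. The causes were not tested. asp-17 and vha-7 had 0 reads in WT Late replicate 2.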

Other observations

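The make-up of the proton pump transcripts was described by shares of summed FPKM within a library. These were looked at after the data had been seen and were not tested. The groups overlapped for 17 of 20 subunits, and the shares below are the rest. The F subunit vha-9 made up 6.82% to 7.97% of pump FPKM in WT Late libraries and 5.42% to 6.24% in WT libraries. The D subunit vha-14, part of the central stalk, made up 4.72% to 5.44% in WT Late libraries and 4.36% to 4.68% in WT libraries. vha-20, the worm relative of the prorenin receptor, made up 1.505% to 2.55% in WT Late libraries and 2.79% to 3.18% in WT libraries. The ratio of the B subunit vha-12 to the A subunit vha-13 was 0.612 to 0.799 in WT Late libraries and 0.851 to 0.950 in WT libraries. These ranges do not overlap, and each was chosen as such among 41 shares and 9 ratios. vha-13 overlaps cept-2 and Y49A3A.3 on its own strand in the reference annotation, so part of its reads may belong to those genes.

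The lysosomal lipases listed were lipl-1, lipl-4 and lipl-5. lipl-5 was abundant, with 274, 172, 67.8 and 277 rescaled FPKM in WT Late replicates 1 to 4, against 412, 239 and 384 in WT replicates (log2 fold change -0.96, limma adjusted p 0.654). lipl-4 had 4.86, 1.04, 1.63 and 1.35 rescaled FPKM in WT Late replicates 1 to 4, against 0, 0.1004 and 0.0684 in WT replicates. lipl-1 had 0.738, 0, 0.285 and 0.0703 in WT Late replicates and 2.50, 1.66 and 2.78 in WT replicates. The last 2 were at low levels and were not called with all libraries by limma (adjusted p 0.127 and 0.132), and both were called without WT Late replicate 3 (limma adjusted p 0.0455 and 0.0442).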
